A study of Homo sapiens with 6 samples.

Results

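Amino acids cross cell membranes through carrier proteins, and the solute carrier (SLC) families SLC1A, SLC3A, SLC7A, SLC36A, SLC38A and SLC43A hold the best known of them in human cells. Members were taken from the deposited expression table by gene type and name: protein-coding genes whose symbol opens with one of these 6 family names followed by a digit. This gave 41 of 58735 genes. *SLC7A6OS* meets the naming rule but is named only for its neighbour *SLC7A6* and is not a carrier, which leaves 40 transporter genes. The data were RNA-seq libraries of TPC-1, a human papillary thyroid carcinoma cell line. The 3 TPC-1 libraries came from the wild strain of the line. The other 3, called RRM2-OE here, came from the same line after infection with a lentivirus (vector LV18) that carries full-length *RRM2* behind a CMV promoter and a puromycin resistance cassette. *RRM2* encodes the small subunit of ribonucleotide reductase, the enzyme that makes deoxyribonucleotides. No library of cells with an empty vector was among the 6, so infection and selection cannot be told apart from *RRM2* itself in any comparison below, and the sources do not say whether the infected cells were 1 clone. The methods state biological triplicates of each line. The titles call all 3 infected libraries *RRM2* overexpression, whereas the genotype labels of replicates 2 and 3 read RRM3 and RRM4.

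The level of *RRM2* was checked first. It was 9.17, 9.05 and 8.52 FPKM (fragments per kilobase of gene, scaled to sequencing depth) in TPC-1 and 50.4, 47.5 and 47.2 FPKM in RRM2-OE, so that all 3 infected libraries carried the transcript at a higher level, 5.42-fold on the means. Libraries held 14317091 to 17084067 reads on genes, and the correlation of log2 values between libraries was higher within each group than between the groups. Of the thyroid markers, *PAX8* (67.3 to 70.8 FPKM in TPC-1 and 56.3 to 59.8 FPKM in RRM2-OE) and *FOXE1* were expressed in every library, while *TG*, *TSHR*, *NKX2-1* and *SLC5A5* were at or near 0. Markers of leukocytes and of C cells were at or near 0 as well. The summed level of 5 epithelial markers was 41.9 to 45.8 FPKM in TPC-1 and 87.3 to 89.7 FPKM in RRM2-OE, nearly all of it *KRT18*, with *EPCAM*, *KRT19* and *CDH1* near 0. The summed level of 3 endothelial markers, nearly all *PECAM1* (*VWF* and *CDH5* were at or near 0), was 0.873 to 1.05 FPKM in TPC-1 and 0.0667 to 0.115 FPKM in RRM2-OE. The summed level of 4 fibroblast markers was 2.68 to 3.06 FPKM in TPC-1 and 2.78 to 2.94 FPKM in RRM2-OE, with *COL1A2* and *COL3A1* at 0. The part of these shifts in the transporter results was not tested.

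Transporters fall into systems by what they carry and what drives them. SLC7A light chains reach the plasma membrane bound to a glycoprotein heavy chain, SLC3A2 (also called 4F2hc or CD98) or SLC3A1, and exchange an amino acid inside the cell for another outside. SLC1A and most SLC38A carriers use the sodium gradient, whereas SLC36A carriers use protons and sit largely on endosomes and lysosomes. When amino acids run short, the kinase GCN2 phosphorylates the initiation factor eIF2alpha, translation of the transcription factor ATF4 increases, and ATF4 with C/EBP partners binds a composite element, TGATGNAA, near the genes of the amino acid response, among them several transporters.

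Because this element is the known link between the transporters and the amino acid response, its letters were searched on both strands in RefSeq promoter windows (GRCh38.p14, 250 bases before to 50 after each annotated start; a gene can have several). Of the 22 transporter genes expressed highly enough to test, 19 had a window and 6 of these held the letters (31.6%), against 265 of 9521 tested genes with a window (2.78%) and 1217 of all 27305 genes with a window (4.46%). *SLC7A11*, *SLC7A2* and *SLC43A3* had no window and were not searched. The tested transporters had 37 windows, of which 6 held the letters (16.2%), against 2.05% of the windows of all tested genes. Each match is shown with up to 10 flanking bases, 5′ to 3′ on the strand where the letters read TGATGNAA, with the matching letters in capitals. It is a description of the sequence and not a binding site.
*SLC1A4*: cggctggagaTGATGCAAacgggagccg
*SLC1A5*: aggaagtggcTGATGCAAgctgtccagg
*SLC1A3*: aggaaatgacTGATGCAAagcagggtta
*SLC38A1*: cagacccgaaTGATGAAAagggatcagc
*SLC7A1*: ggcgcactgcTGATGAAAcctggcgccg
*SLC3A2*: ggagcTGATGTAAggagtcctgc
The *SLC1A4* stretch lies at chr2:64989382-64989409 on the minus strand, opposite the gene, and its letters run from 7 bases before a start to base 1. The letters of *SLC1A5* (chr19:46784894-46784921, minus strand, which is the strand of the gene) begin 97 bases before a start, and those of *SLC1A3* (chr5:36596358-36596385, plus strand, as the gene) begin 220 bases before one. In *SLC38A1* (chr12:46266503-46266530, minus strand, as the gene) the letters span a start, from 4 bases before it to base 4. *SLC7A1* (chr13:29595664-29595691, minus strand, as the gene) and *SLC3A2* (chr11:62881726-62881748, minus strand, opposite the gene) held them downstream of a start, at bases 8 to 15 and 38 to 45. The *SLC3A2* stretch is shorter because it ends at the edge of its window. Only the start beside the *SLC7A1* match was the outer start of the gene as counted. The starts beside the matches of *SLC1A4*, *SLC1A5*, *SLC38A1* and *SLC3A2* lie inside the counted gene. That of *SLC1A3* lies upstream of the counted gene, which begins at 36606355. How much transcript came from each start was not measured. *SLC1A4*, *SLC1A5* and *SLC1A3* thus shared the same 8 letters, as did *SLC38A1* and *SLC7A1*.
For comparison, 3 matches chosen from the amino acid response list described below are shown, *ASNS* (asparagine synthetase), *CHAC1* (a glutathione-degrading enzyme) and *CEBPG* (a C/EBP partner of ATF4). In that list 5 of 26 tested genes with a window held the letters. All 3 shown were called lower in the comparison below. The tested genes with the letters that are not shown, *ATF3* and *PPP1R15B*, were not called.
*ASNS*: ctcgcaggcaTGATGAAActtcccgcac
*CHAC1*: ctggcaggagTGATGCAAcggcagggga
*CEBPG*: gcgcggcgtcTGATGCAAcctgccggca
These lie at chr7:97872459-97872486 (minus strand), chr15:40953252-40953279 (minus strand) and chr19:33374061-33374088 (plus strand).

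Transporter transcripts in TPC-1 were dominated by a few genes. The 40 genes summed to 1041, 977 and 1024 FPKM in TPC-1 and to 972, 967 and 984 FPKM in RRM2-OE, so the groups overlapped in total level. Of these sums, *SLC7A5*, *SLC3A2*, *SLC1A5*, *SLC38A2*, *SLC7A1* and *SLC38A1* made up 90.5% to 91.0% in TPC-1 and 92.4% in each RRM2-OE library. These were the 6 transporter genes with a mean of 40 FPKM or more. Another 16 were tested at lower levels, down to a mean of 0.673 FPKM for *SLC7A7*. Every tested transporter gene had at least 36 reads in every library, and the SD of a group lay between 0.980% and 20.2% of its mean.

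**Figure D1:**
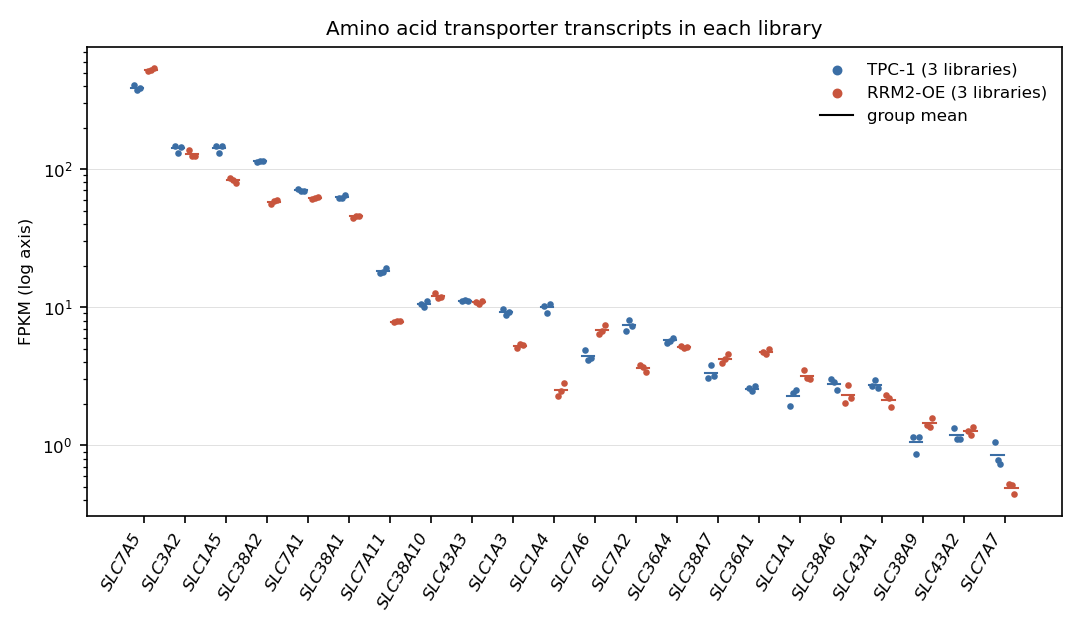
FPKM of the 22 tested transporter genes in each library, on a log axis, ordered by their mean over 6 libraries (points, libraries; short bars, group means; blue, TPC-1; red, RRM2-OE). *SLC7A5* stands above every other transporter in both groups, and the points of *SLC1A4*, *SLC7A11* and *SLC7A2* lie lower in RRM2-OE with no overlap.

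RRM2-OE was compared with TPC-1 gene by gene with limma on log2(FPKM + 0.1), adjusted by the Benjamini-Hochberg method over all 13621 genes tested. Fold changes below are on this log2 scale, RRM2-OE over TPC-1, with their standard error (SE). A gene was called where the adjusted p was 0.05 or less and the level at least doubled or halved (1 or more on the log2 scale), and is described as risen or fallen where the adjusted p alone passed. Of the 22 tested transporter genes, 3 were called, *SLC1A4*, *SLC7A11* and *SLC7A2*, all lower (13.6%). Over all genes tested 11.5% were called, 6.97% lower and 4.48% higher, so the share of transporters called was near the background. By limma 0 transporter genes were called higher, and voom on the recovered reads also called 0. At an unadjusted p under 0.05, before any fold change was asked for, 7 were higher and 11 lower. By adjusted p alone 7 transporter genes rose and 11 fell, 81.8% of those tested, against 67.6% of all genes (34.9% risen and 32.7% fallen). The values of the groups did not overlap for 19 of the 22, against 72.2% of all genes tested. The median log2 fold change of the transporters was -0.17, and that of all genes was 0.01. Their median absolute log2 fold change was 0.45, against 0.37 over all genes. In such bulk libraries a change in every cell and a change in the share of cells that express a gene cannot be told apart.

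**Figure D2:**
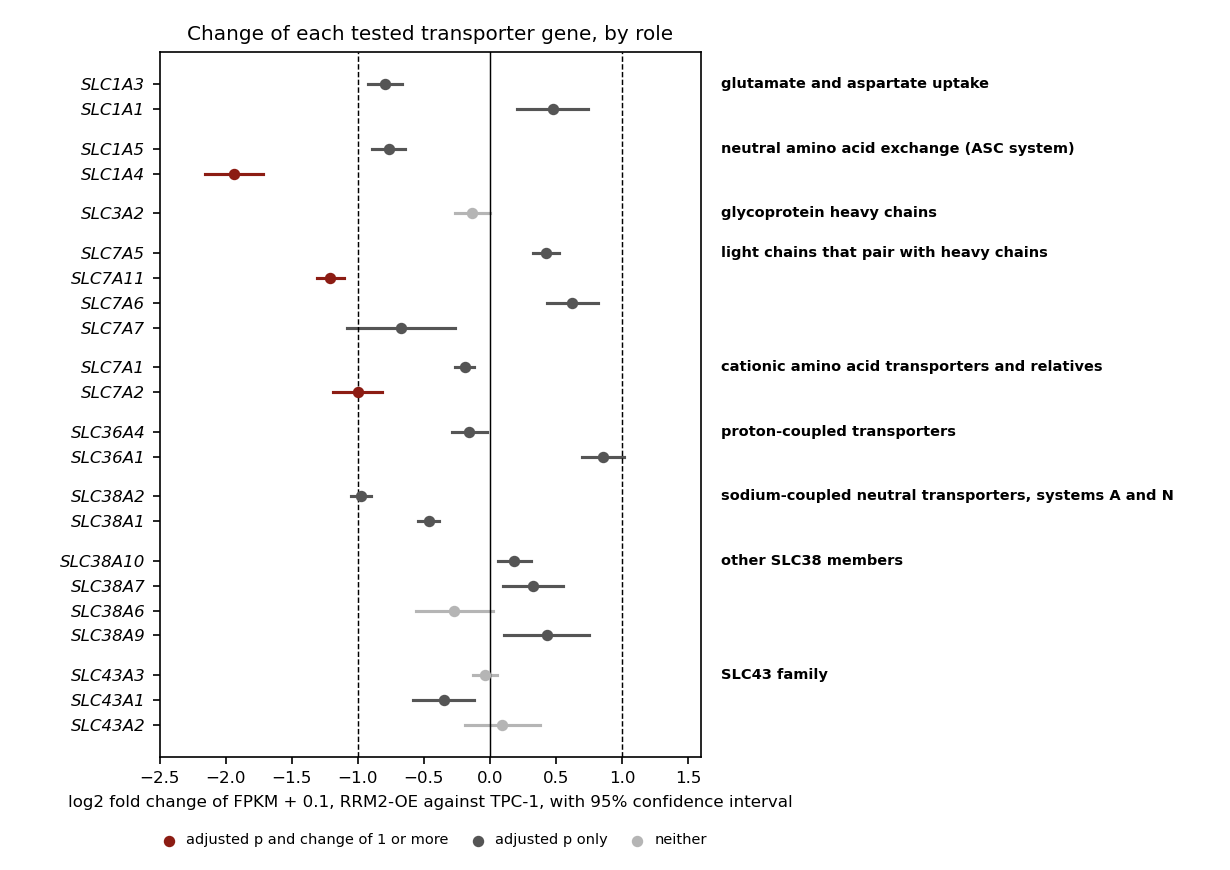
Log2 fold change of FPKM + 0.1, RRM2-OE against TPC-1, with its 95% confidence interval for the 22 tested transporter genes, grouped by role (dashed lines, a change of 1 in either direction; dark red, called; dark grey, adjusted p only; light grey, neither). *SLC1A4* lies farthest from 0 at -1.94, and *SLC7A2* and *SLC38A2* lie on either side of the lower line.

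The light chains of the heterodimeric exchangers moved in opposite directions. *SLC7A5* encodes LAT1, the light chain that imports leucine and other large neutral amino acids in exchange for glutamine. It was the transporter gene of the highest level, at 407, 376 and 387 FPKM in TPC-1 and 513, 519 and 537 FPKM in RRM2-OE. All 3 RRM2-OE libraries lay above all 3 TPC-1 libraries, a rise of 1.34-fold on the means and 0.42 on the log2 scale (SE 0.044, adjusted p = 5.6e-05 by limma). The gene spans chr16:87830023-87869488 on the minus strand. Its pseudogene *SLC7A5P1* was at 2.34, 2.88 and 2.45 FPKM in TPC-1 and 2.19, 2.50 and 2.22 FPKM in RRM2-OE, while *SLC7A5P2* was listed at 0 throughout, and how reads shared with these copies were counted is not stated.

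*SLC3A2*, the heavy chain that LAT1 and several other light chains need, did not follow. It was at 148, 131 and 145 FPKM in TPC-1 and at 137, 125 and 124 FPKM in RRM2-OE, so the groups overlapped. The log2 fold change was -0.13 (95% confidence interval -0.26 to 0.00, adjusted p = 0.072 by limma). Without TPC-1 replicate 2 it was -0.18 (adjusted p = 0.017), and without RRM2-OE replicate 1 it was -0.18 (adjusted p = 0.023). With all 6 libraries kept, the small fall passed by voom on the recovered reads (adjusted p = 0.0042). It also passed with libraries scaled to their totals and with the replicate number as a block. The side of the threshold thus rested on single libraries and on the method. The ratio of *SLC7A5* to *SLC3A2* in FPKM, both per annotated gene length, was 2.75, 2.86 and 2.66 in TPC-1 and 3.74, 4.13 and 4.32 in RRM2-OE. The other heavy chain gene, *SLC3A1*, which serves cystine and dibasic amino acid uptake in kidney and intestine, had 13 reads over all 6 libraries, although 1923 of its exonic bases overlap *PREPL*, a gene on the other strand with a mean of 7.98 FPKM.

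*SLC7A11* encodes xCT, the light chain that brings in cystine for glutamate and so feeds glutathione synthesis. It was at 17.7, 18.0 and 19.3 FPKM in TPC-1 and at 7.75, 7.94 and 7.93 FPKM in RRM2-OE. Every infected library lay below every wild strain library, with a fall of 1.21 on the log2 scale (SE 0.045, adjusted p = 2.8e-07), which is a level 2.33-fold higher in TPC-1. The gene spans chr4:138164097-138242349 on the minus strand. A gene on the other strand, *SLC7A11-AS1*, shares 865 of its exonic bases and was at 0.399, 0.685 and 0.581 FPKM in TPC-1 and 0.236, 0.171 and 0.183 FPKM in RRM2-OE. Relative to the common heavy chain, the ratio of *SLC7A11* to *SLC3A2* was 0.120 to 0.137 in TPC-1 and 0.056 to 0.064 in RRM2-OE.

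Of the other light chains, *SLC7A6* (y+LAT2, which exchanges cationic for neutral amino acids) was at 4.90, 4.14 and 4.28 FPKM in TPC-1 and 6.44, 6.74 and 7.48 FPKM in RRM2-OE. Its log2 fold change was 0.62 (SE 0.084, adjusted p = 0.00026). Of its exonic bases 44.4% overlap *SLC7A6OS* on the other strand, which rose by 0.33 on the log2 scale (adjusted p = 0.018), from 1.20, 1.31 and 1.28 FPKM to 1.59, 1.67 and 1.57 FPKM. That rise no longer passed without TPC-1 replicate 1 (0.29, adjusted p = 0.051) or without RRM2-OE replicate 2 (0.30, adjusted p = 0.061). Whether strand was used in counting is not stated, so reads of this pair cannot be assigned with certainty. *SLC7A7* (y+LAT1) was the tested transporter of the lowest level, at 0.734 to 1.05 FPKM in TPC-1 and 0.440 to 0.526 FPKM in RRM2-OE, and fell by 0.67 on the log2 scale (adjusted p = 0.0098). The RRM2-OE libraries alone would not have passed the filter of 0.5 FPKM in 3 libraries, and with no filter the adjusted p was 0.061.

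The ASC system exchangers fell together. *SLC1A5* encodes ASCT2, a major route of glutamine into tumor cells, and *SLC1A4* encodes ASCT1, which carries serine, alanine and cysteine. *SLC1A5* was at 147, 130 and 147 FPKM in TPC-1 and at 85.8, 82.9 and 79.9 FPKM in RRM2-OE. The groups did not overlap, and the log2 fold change was -0.77 (SE 0.055, adjusted p = 7.2e-06), short of the fold required for a call. *SLC1A4* was at 10.3, 9.07 and 10.6 FPKM in TPC-1 and at 2.26, 2.47 and 2.84 FPKM in RRM2-OE. This was a level 3.94-fold higher in TPC-1, a fall of 1.94 on the log2 scale (SE 0.095, adjusted p = 1.1e-06), the largest change among the tested transporters. The ratio of *SLC1A5* to *SLC1A4* was 13.9 to 14.3 in TPC-1 and 28.1 to 37.9 in RRM2-OE. *SLC1A5* spans chr19:46774883-46788594 on the minus strand, and *SLC1A4* spans chr2:64988477-65023865 on the plus strand. Both held the letters of the composite element shown above, at starts inside the counted gene. The letters were also held by *SLC1A3* (-0.79), *SLC38A1* (-0.46), *SLC7A1* (-0.19) and *SLC3A2* (-0.13, adjusted p not passed). *SLC38A2* (-0.98) had a window without them. Whether the letters bear on the levels was not tested.

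The glutamate and aspartate carriers of the same family split. *SLC1A3* (EAAT1), an aspartate and glutamate importer best known from glia, was at 9.71, 8.78 and 9.17 FPKM in TPC-1 and at 5.07, 5.44 and 5.30 FPKM in RRM2-OE. It fell by 0.79 on the log2 scale (SE 0.057, adjusted p = 7.2e-06). *SLC1A1* (EAAT3), which also carries cysteine, was at 1.92 to 2.53 FPKM in TPC-1 and 3.03 to 3.50 FPKM in RRM2-OE, a rise of 0.47 (SE 0.12, adjusted p = 0.0071).

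Both expressed system A carriers fell. *SLC38A2* encodes SNAT2, a sodium-coupled importer of alanine, serine and glutamine that cells raise when amino acids are scarce. It was at 113, 115 and 115 FPKM in TPC-1 and at 56.1, 58.3 and 59.5 FPKM in RRM2-OE, a level 1.97-fold higher in TPC-1. The log2 fold change of -0.98 (SE 0.033, adjusted p = 1.9e-07) lay just outside the threshold for a call, and with the libraries scaled to their total reads it was -1.04 and passed. *SLC38A1* (SNAT1), at 61.3, 62.1 and 64.4 FPKM in TPC-1, was at 44.3, 46.1 and 45.7 FPKM in RRM2-OE, a fall of 0.46 (SE 0.034, adjusted p = 8.2e-06). Neither gene's values overlapped between the groups. Their ratio, *SLC38A2* to *SLC38A1*, was 1.78 to 1.85 in TPC-1 and 1.27 to 1.30 in RRM2-OE. The genes lie near each other on chromosome 12, at 46358189 to 46372867 and 46183063 to 46270017, both on the minus strand.

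Among the cationic amino acid transporters, *SLC7A1* (CAT1, the common importer of arginine and lysine) was at 72.0, 69.8 and 69.7 FPKM in TPC-1 and 60.5, 62.2 and 62.4 FPKM in RRM2-OE. It fell by 0.19 on the log2 scale (SE 0.031, adjusted p = 0.00075). *SLC7A2* (CAT2), an arginine carrier known from macrophages and liver, was at 6.75, 8.10 and 7.26 FPKM in TPC-1 and 3.81, 3.67 and 3.39 FPKM in RRM2-OE. Its log2 fold change of -1.00 (SE 0.081, 95% confidence interval -1.19 to -0.82, adjusted p = 1.4e-05) lay just inside the threshold. Without TPC-1 replicate 2 it was -0.93 and without RRM2-OE replicate 3 it was -0.96, and the gene was then no longer called, nor with a pseudocount of 1 (-0.85). The fall itself passed the adjusted p under each of these.

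**Figure D3:**
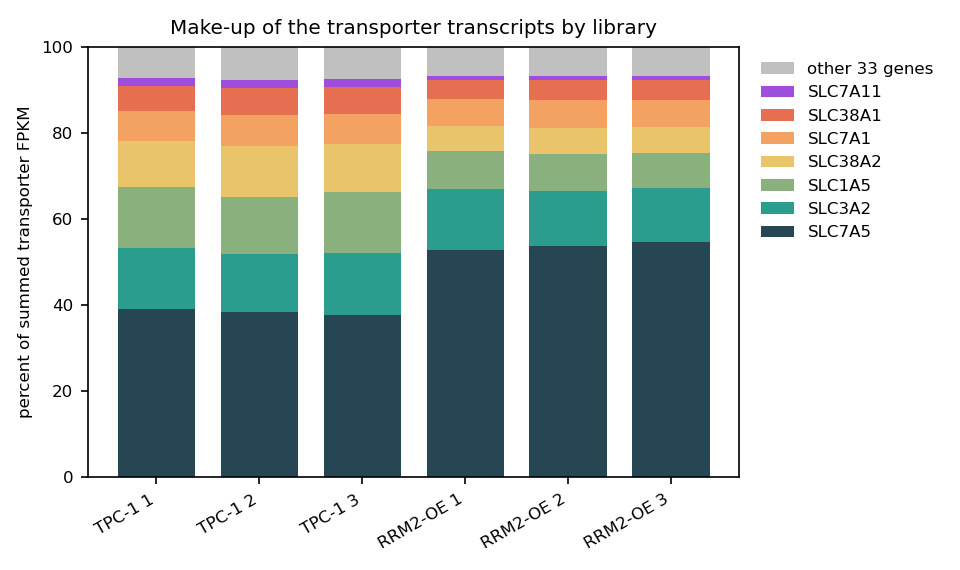
Make-up of the transporter transcripts in each library, as the percent of the summed FPKM of the 40 transporter genes (stacked segments, genes; grey, the other 33). The bottom segment, *SLC7A5*, takes 37.8% to 39.0% in TPC-1 and 52.8% to 54.6% in RRM2-OE.

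The totals overlapped, but the make-up of the transporter transcripts differed between the groups. *SLC7A5* took 39.0%, 38.5% and 37.8% of the summed FPKM in TPC-1 and 52.8%, 53.6% and 54.6% in RRM2-OE. *SLC1A5* took 13.9% ± 0.546 (SD, n = 3) in TPC-1 and 8.51% ± 0.361 in RRM2-OE, and *SLC38A2* took 11.3% ± 0.469 and 5.95% ± 0.153. *SLC3A2* held 13.9% ± 0.426 and 13.2% ± 0.794, with groups that overlapped. Leaving *SLC7A5* out, the other 39 genes summed to 635, 601 and 636 FPKM in TPC-1 and to 458, 448 and 447 FPKM in RRM2-OE. The sum of all other transporters was thus lower in each infected library while that of all 40 overlapped. These shares depend on the annotated gene lengths and were not tested.

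Of the proton-coupled carriers, *SLC36A1* (PAT1, found on lysosomes) had the largest rise in fold among the tested transporters. It was at 2.58, 2.46 and 2.67 FPKM in TPC-1 and at 4.70, 4.56 and 4.95 FPKM in RRM2-OE, a log2 fold change of 0.86 (SE 0.069, 95% confidence interval 0.70 to 1.02, adjusted p = 1.4e-05) that missed the threshold for a call. *SLC36A4* (PAT4) was at 5.50 to 6.00 FPKM in TPC-1 and 5.02 to 5.27 FPKM in RRM2-OE, a log2 fold change of -0.16 (adjusted p = 0.038). Leaving out TPC-1 replicate 2 or 3, or RRM2-OE replicate 2 or 3, gave -0.16, -0.12, -0.14 and -0.15 with adjusted p of 0.075, 0.13, 0.11 and 0.087. The ratio of *SLC36A1* to *SLC36A4* was 0.430 to 0.470 in TPC-1 and 0.891 to 0.968 in RRM2-OE.

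The 4 other tested SLC38 genes had absolute log2 fold changes of 0.43 or less. *SLC38A10*, a widely expressed member, was at 10.6, 9.99 and 11.1 FPKM in TPC-1 and 12.6, 11.6 and 11.8 FPKM in RRM2-OE, a log2 fold change of 0.19 (adjusted p = 0.015). *SLC38A9*, the lysosomal arginine sensor that acts on mTORC1, was at 0.869 to 1.15 FPKM in TPC-1 and 1.36 to 1.58 FPKM in RRM2-OE, with 0.43 on the log2 scale (adjusted p = 0.024). It no longer passed without TPC-1 replicate 2 (0.31, adjusted p = 0.066) or without RRM2-OE replicate 3 (0.37, adjusted p = 0.079). *SLC38A7*, a lysosomal glutamine and asparagine carrier, had a log2 fold change of 0.33 (adjusted p = 0.017), which did not pass without TPC-1 replicate 1 (0.27, adjusted p = 0.059), without TPC-1 replicate 3 (0.29, adjusted p = 0.057) or without RRM2-OE replicate 3 (0.28, adjusted p = 0.061). The groups of *SLC38A6* overlapped, at 2.50 to 3.02 FPKM in TPC-1 and 2.02 to 2.72 FPKM in RRM2-OE (-0.27, adjusted p = 0.089), and without RRM2-OE replicate 2 the value was -0.39 (adjusted p = 0.020). Of its exonic bases, 245 overlap *TRMT5* on the other strand.

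All 3 SLC43 genes were tested, and their absolute log2 fold changes were 0.35 or less. *SLC43A3*, a purine base carrier rather than an amino acid carrier, was at 11.0, 11.3 and 11.1 FPKM in TPC-1 and 10.9, 10.6 and 11.0 FPKM in RRM2-OE (-0.04, 95% confidence interval -0.13 to 0.05, adjusted p = 0.42). *SLC43A2* (LAT4), a facilitated carrier of large neutral amino acids, differed by 0.09 (95% confidence interval -0.19 to 0.38, adjusted p = 0.52). *SLC43A1* (LAT3), with the same substrates, had a log2 fold change of -0.35 (adjusted p = 0.015), and without TPC-1 replicate 2 it was -0.30 (adjusted p = 0.052).

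The other 18 transporter genes were under the minimum of the test and none exceeded 0.0938 FPKM or 6 reads in any library. *SLC7A8*, *SLC7A13*, *SLC7A14*, *SLC7A3*, *SLC1A6* and *SLC7A10* had 0 reads in all 6 libraries. A count of 0 allows up to 3 reads in a library, which corresponds to 0.0167 to 0.0924 FPKM for these 6 genes and covers counting error only. *SLC7A8* (LAT2) is the close relative of LAT1, and *SLC7A10* (Asc-1) carries small neutral amino acids and D-serine. The other 12, *SLC38A5*, *SLC38A4*, *SLC7A9*, *SLC36A2*, *SLC3A1*, *SLC7A4*, *SLC1A7*, *SLC38A3*, *SLC38A8*, *SLC36A3*, *SLC1A2* and *SLC38A11*, had 1 to 17 reads over all libraries. They include the renal and intestinal cystine transporter light chain (*SLC7A9*), the astrocyte glutamate transporter (*SLC1A2*) and the system N carriers *SLC38A3* and *SLC38A5*. None of the 18 was compared in the main test, so at this depth a difference between the groups was neither shown nor excluded.

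Genes that work with the transporters were read from 6 lists. In the amino acid response list (the eIF2alpha kinases, *ATF4* and its classical targets, without transporters), 14 of 33 tested genes were called, all lower (42.4%, against 6.97% lower over all genes). By adjusted p alone 22 fell and 5 rose, against 32.7% fallen and 34.9% risen over all genes, and the median log2 fold change was -0.69. The 5 that rose were *GDF15* (0.61), *EIF2AK4*, which encodes GCN2 (0.50), *EIF2AK2* (0.35), *ATF5* (0.31) and *ALDH18A1* (0.28). *ATF4* itself was at 263, 249 and 257 FPKM in TPC-1 and 219, 213 and 208 FPKM in RRM2-OE, a fall of 0.26 (adjusted p = 0.00038). *ASNS* was at 2.96, 3.10 and 3.01 FPKM in TPC-1 and 0.606, 0.603 and 0.888 FPKM in RRM2-OE (-1.99, adjusted p = 9.3e-06). *DDIT4* (REDD1, an inhibitor of mTORC1) had the largest change of the list, at 297 ± 22.0 FPKM (SD, n = 3) in TPC-1 and 28.3 ± 1.53 FPKM in RRM2-OE (-3.39). *PCK2*, the mitochondrial phosphoenolpyruvate carboxykinase, changed by -2.82, *CHAC1* by -2.63 and *CBS*, which makes cystathionine from homocysteine and serine, by -2.04. The direction of this list was known when the lists were written, so its count describes these libraries and is not independent support.

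Sensors and enzymes were read in the same way. Of 33 tested genes of the amino acid sensing and Rag GTPase list, 1 was called (3.03%, against 11.5% of all genes), and by adjusted p alone 16 rose and 9 fell, with a median log2 fold change of 0.16. The called gene, *SESN1*, was at 2.46 ± 0.0825 FPKM in TPC-1 and 6.80 ± 0.344 FPKM in RRM2-OE (1.43). The leucine sensor *SESN2*, also a member of the amino acid response list, fell by 0.75 (35.7 ± 2.48 and 21.2 ± 1.02 FPKM, adjusted p = 1.1e-05). Of 15 tested enzymes that use imported amino acids, 3 were called (against 11.5% of all genes), 1 higher and 2 lower, and by adjusted p alone 5 rose and 7 fell. *ASS1*, which makes argininosuccinate from citrulline and aspartate, was at 57.3 ± 1.67 FPKM in TPC-1 and 13.7 ± 0.253 FPKM in RRM2-OE (-2.05), and the mitochondrial arginase *ARG2* changed by -1.67. *ARG2* was at 1.26 to 1.43 FPKM in TPC-1 and 0.234 to 0.544 FPKM in RRM2-OE, and the RRM2-OE libraries alone would not have passed the filter. *ODC1*, the ornithine decarboxylase of polyamine synthesis, was at 25.8 ± 1.81 FPKM in TPC-1 and 66.4 ± 3.30 FPKM in RRM2-OE (1.36).

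Carriers outside the 6 families were mixed. Of 10 tested genes in the list of other carriers, 3 were called (against 11.5% of all genes), 2 of them at low levels. By adjusted p alone 3 rose and 4 fell, against 34.9% risen and 32.7% fallen over all genes, with a median log2 fold change of 0.11. *SLC6A9*, the glycine transporter GLYT1, was at 15.5, 14.4 and 15.1 FPKM in TPC-1 and 3.27, 3.39 and 3.60 FPKM in RRM2-OE (-2.10, adjusted p = 5.9e-08). *SLC6A17* (1.28) and *SLC17A7* (-1.24), both known from synaptic vesicles, reached at most 0.580 and 0.633 FPKM in any library and passed the filter only through the group where they were higher. The taurine transporter *SLC6A6* was at 74.9, 77.6 and 72.4 FPKM in TPC-1 and 37.2, 37.7 and 37.7 FPKM in RRM2-OE, just outside the threshold (-1.00, adjusted p = 2.1e-07), and without TPC-1 replicate 3 its value was -1.02 and passed it. The list also holds carriers of creatine (*SLC6A8*), choline (*SLC44A1*) and anions (*SLC26A6*). Of 10 tested mitochondrial carriers 0 were called by limma or by voom, with 11.5% called over all genes. By adjusted p alone 8 rose and 0 fell, against 34.9% and 32.7% of all genes, and the median log2 fold change was 0.36.

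**Figure D4:**
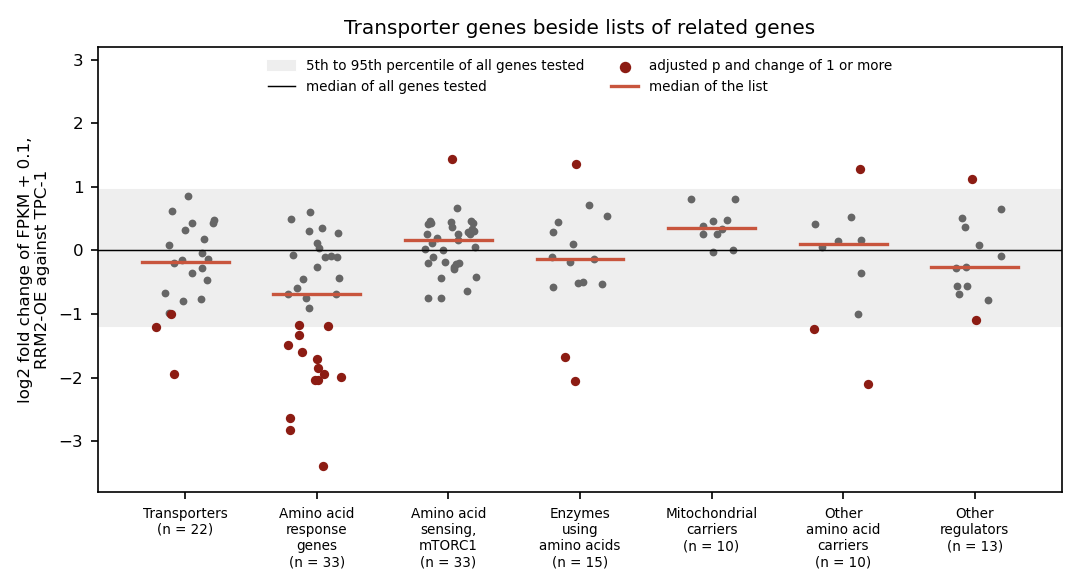
Log2 fold change of FPKM + 0.1, RRM2-OE against TPC-1, for the 22 tested transporters and the tested genes of 6 lists (points, genes with random horizontal spread; dark red, called; orange bars, list medians; grey band, 5th to 95th percentile of all 13621 genes tested). The amino acid response list has the lowest median, -0.69, and 14 called genes, all below 0, whereas the transporters spread on both sides of 0.

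Regulators known to act on transporter genes were measured as well. *MYC*, known to raise *SLC1A5* and *SLC7A5*, was at 128, 125 and 123 FPKM in TPC-1 and 70.3, 71.7 and 75.4 FPKM in RRM2-OE, a fall of 0.78 (SE 0.037, adjusted p = 8.9e-07). The paper's Western blots reported c-MYC protein as higher with *RRM2* overexpression in TPC-1 cells, the opposite direction to this transcript. *NFE2L2* (NRF2), known to raise *SLC7A11*, fell by 0.56 (25.1 ± 0.481 and 17.1 ± 0.374 FPKM, adjusted p = 3.9e-06). Of the 13 genes of this list 2 were called (15.4%), near the 11.5% of all genes. By adjusted p alone 4 rose and 7 fell, against 34.9% risen and 32.7% fallen over all genes. The median log2 fold change of the list was -0.26. *NEDD4L*, a ubiquitin ligase that acts on several carriers, rose by 1.12 (9.54 ± 0.234 and 20.9 ± 0.782 FPKM), and *TFEB*, a regulator of lysosomal genes, fell by 1.09 (3.37 ± 0.165 and 1.54 ± 0.0962 FPKM). These are transcript levels only, and the part of any regulator in the transporter values was not tested.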

How the data were processed

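RNA of 3 wild strain TPC-1 and 3 RRM2-OE libraries was sequenced. After trimming with fastp, the authors aligned the reads (HISAT2 2.0.5), counted them per gene (featureCounts 1.5.0) and deposited FPKM. The submitters' processing notes name the build GRCh38.p14. The annotation and the use of strand in counting are not given in the sources used here, and all 58735 gene positions were those of GENCODE 29 on GRCh38. The labels describe rRNA removal and RNase R digestion, whereas the methods describe poly(A) selection. FPKM times gene length, divided by a step fitted for each library, came out as whole reads (100.0% of values within 0.01). The step gave the depth. Where it was checked, gene length was that of all annotated exons of a gene together, not of the expressed transcript. Ratios and shares between different genes therefore depend on the annotation.

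The test was limma 3.58.1 (R 4.3.3; lmFit, eBayes with trend) on log2(FPKM + 0.1) of genes with at least 0.5 FPKM and 10 reads in 3 libraries, in place of a count test because the deposited unit is FPKM. On simulated data 199 of 200 changed genes were called. The planted changes were well above the threshold for a call and the spread was a chosen setting. Changes near or under the threshold were therefore not probed. Voom on the recovered reads was an alternative and called 1732 genes, against 1560. Python 3.11.15, pandas 2.3.3, numpy 2.4.6, scipy 1.17.1 and matplotlib 3.10.9 were used for the rest. Low values understate fold changes because of the pseudocount. P-values set the difference between the groups against the spread between these libraries, and do not cover variation between separately infected lines.

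The members and lists were chosen with earlier results of these data known. Values in every library are given for called members, the 10 of the highest mean FPKM, *SLC3A2*, *SLC7A5*, *SLC7A11* and *SLC1A5*, and the other members by fold change or range. *SLC7A6*, *SLC7A6OS* and *SLC36A1* were given in every library, and *CEBPG* was shown, after their values were seen. *ATF3*, *PPP1R15B* and the amino acid response genes that rose were also named after their values were seen. From each list, *ATF4*, *MYC*, *NFE2L2*, *SESN2*, *ASNS*, *SLC6A6* and up to 4 called genes of the largest change are named. Some genes that the rule or the marker lists name are not reported here. Symbols of 3 listed genes (*SLC66A1*, *GATSL3*, *GATSL2*) were not in the table, which holds these genes under other symbols that were listed too.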

Additional observations from a re-analysis of the deposited data

How the results depend on the processing

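Every tested transporter gene kept its direction under all 15 alternatives in which it had a value. Leaving aside the test of a change above 1, which asks a different question, 279 of the recomputed values of single transporters stayed on the same side of their thresholds, 19 lost a threshold and 9 gained one. Called genes over the whole table numbered 1560. A pseudocount of 1 gave 716 and a test of a change above 1 on the log2 scale gave 618. Leaving out 1 library at a time gave 1573 to 1608. The count of transporters called lower was 3, 2 with a pseudocount of 1 and in the test of a change above 1, and 4 with libraries scaled to their totals. It was 2 to 3 with 1 library left out. In the test above 1 the remaining calls were *SLC1A4* (adjusted p = 0.00034) and *SLC7A11* (adjusted p = 0.023). The count of transporters called higher was 0 under every alternative. Of the list of other amino acid carriers, 3 were called, against 1 with a pseudocount of 1, 1 with the stricter filter (1 FPKM and 30 reads) and 1 in the test above 1. Of the other regulators, 2 were called, against 1 with a pseudocount of 1 and 0 in the test above 1. The amino acid response list had 13 to 15 called genes throughout. Of the other named genes, *TFEB*, *ARG2*, *SLC17A7* and *SLC6A17* were not called with a pseudocount of 1 or in the test above 1, nor *NEDD4L* in the latter.

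Without the filter on low values, *SLC7A7* (adjusted p = 0.061), *SLC38A9* (0.083), *SLC38A7* (0.052) and *SLC36A4* (0.057) no longer passed the adjusted p. Scaled to library totals, *SLC38A10* did not (0.071), and *SLC3A2* (0.018) and *SLC38A6* (0.045) did. Voom on the recovered reads also passed *SLC3A2* (0.0042) and *SLC38A6* (0.034). That scaling moved the median of all genes from 0.01 to -0.05. Samples of the same replicate number did not deviate together (correlations -0.011, -0.006 and -0.055). The labels state no pairing by number, and with groups of 3 these values cannot exclude one. With the replicate number as a block 1566 genes were called, 3 transporters lower, 0 higher and 7 risen and 11 fallen by adjusted p, while *SLC3A2* passed (0.042) and *SLC36A4* did not (0.076). Depth limits the 18 untested genes, and groups of 3 leave single libraries able to move members that lie near a threshold.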
